A study of Mus musculus with 2 samples.

Results

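Peg3, Mest, Peg10, Plagl1, Grb10, Impact and Nnat are 7 mouse genes expressed mainly from 1 parental allele, and the data described here are the 5-hydroxymethylcytosine (5hmC) calls around them. Members were the cytosines whose deposited position fell within a given interval around each gene, all on build mm9. The intervals were Peg3 on chromosome 7 from 6645001 to 6700000, Mest on chromosome 6 from 30675001 to 30710000, Peg10 on chromosome 6 from 4690001 to 4720000, Plagl1 on chromosome 10 from 12800001 to 12860000, Grb10 on chromosome 11 from 11825001 to 11945000, Impact on chromosome 18 from 13120001 to 13162000 and Nnat on chromosome 2 from 157378001 to 157396000. Together they cover 360 kb and held 3141 of the 13025343 listed cytosines of the series, with 46403 of its 176006227 reads. The study profiled the DNA of E14, a long-established line of mouse embryonic stem cells, at passage 12, with no treatment or genetic change named in the labels; the table measures DNA only, and markers of the cell type were not tested. It comprised 2 libraries of this 1 group, and the deposited table holds a single pooled count per cytosine. No replicate error and no test between samples can therefore be had, and every comparison below is between regions of the same pooled table. Intervals given with counts and shares are exact 95% intervals for counting error alone, as PCR copies could not be told from separate molecules.

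Imprinted genes carry DNA methylation on the allele from 1 parent only at a control region, which is set in the germ line and kept through cell division. TET enzymes, which are abundant in mouse embryonic stem cells, oxidise 5-methylcytosine to 5hmC, so that 5hmC marks cytosines that had been methylated. ZFP57, a zinc finger protein of these cells, binds the methylated hexamer TGCCGC at many imprinted control regions and helps to keep their methylation. In the assay used here 5hmC was glucosylated and the DNA was cut by AbaSI, an endonuclease that cleaves at a fixed distance from the glucosylated base, so that the ends of reads point to single cytosines. A read gives no information on the parental allele it came from, so 5hmC on 1 allele and 5hmC at a lower level on both cannot be told apart. The 7 genes differ in what they encode. Peg3 and Plagl1 are zinc finger transcription factors, and Grb10 is an adaptor that binds the insulin and insulin-like growth factor receptors. Mest has the fold of an alpha/beta hydrolase, and Peg10 derives from a retrotransposon and is needed for the mouse placenta. Impact limits the activation of the translation-controlling kinase GCN2, and Nnat is a small membrane proteolipid of developing neurons whose gene lies within an intron of Blcap.

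The sequences in which the listed cytosines could be read directly are shown first. RefSeq promoters (GRCm38.p6, 250 bases before to 50 bases after a gene's start) were slid over each interval in both orientations. An offset was accepted when at least 8 CG dinucleotides of the sequence were listed, every listed site met its own dinucleotide on its own strand, and no other offset passed. Of 24 promoters of these genes and their known neighbours, only the second of the 2 Grb10 promoters was placed by this rule, and the Nnat promoter and the first of 3 Mest promoters were placed when the minimum was lowered to 5. The 250 bases before each of these starts are printed 5′ to 3′ on the gene's strand, with the CG dinucleotides that the table lists in capitals on either strand. In mm9 they lie at chr11:11927975-11928224 on the minus strand, chr2:157385564-157385813 on the plus strand and chr6:30683256-30683505 on the plus strand.
Grb10 promoter 2: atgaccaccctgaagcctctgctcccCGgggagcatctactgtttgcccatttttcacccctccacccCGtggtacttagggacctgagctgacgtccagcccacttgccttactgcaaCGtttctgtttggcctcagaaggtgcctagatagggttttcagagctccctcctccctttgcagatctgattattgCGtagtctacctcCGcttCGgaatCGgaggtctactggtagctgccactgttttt
Nnat promoter: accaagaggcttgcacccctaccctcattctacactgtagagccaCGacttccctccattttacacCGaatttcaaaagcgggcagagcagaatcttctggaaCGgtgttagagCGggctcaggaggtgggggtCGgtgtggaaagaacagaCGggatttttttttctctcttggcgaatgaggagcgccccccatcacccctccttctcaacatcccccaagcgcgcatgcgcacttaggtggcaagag
Mest promoter 1: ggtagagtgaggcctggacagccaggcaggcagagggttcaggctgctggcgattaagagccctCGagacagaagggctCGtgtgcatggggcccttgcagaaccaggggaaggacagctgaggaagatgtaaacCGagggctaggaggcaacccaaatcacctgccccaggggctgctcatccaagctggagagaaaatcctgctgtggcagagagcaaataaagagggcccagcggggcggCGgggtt

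Before the start, 7 of 8 CG were listed in the Grb10 sequence, 6 of 12 in the Nnat sequence and 4 of 7 in the Mest sequence. In the Grb10 sequence all CG but 1 thus carried 5hmC reads. In the Nnat sequence the listed CG lie in the part far from the start, and the CG cluster next to the start was not listed.

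The next sequences are promoters of these genes that could not be placed, shown because they hold the ZFP57 hexamer. Capitals mark TGCCGC read on the other strand (GCGGCA). Both are on the plus strand of GRCm38.p6, at chr6:30737800-30738049 for the second Mest promoter and chr10:13090582-13090831 for Plagl1, and neither has a position in mm9 here.
Mest promoter 2: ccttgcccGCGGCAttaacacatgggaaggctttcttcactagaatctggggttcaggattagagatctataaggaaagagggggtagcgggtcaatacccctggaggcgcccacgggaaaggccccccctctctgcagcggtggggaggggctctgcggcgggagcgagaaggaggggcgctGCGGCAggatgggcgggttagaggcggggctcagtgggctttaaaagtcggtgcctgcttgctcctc
Plagl1 promoter: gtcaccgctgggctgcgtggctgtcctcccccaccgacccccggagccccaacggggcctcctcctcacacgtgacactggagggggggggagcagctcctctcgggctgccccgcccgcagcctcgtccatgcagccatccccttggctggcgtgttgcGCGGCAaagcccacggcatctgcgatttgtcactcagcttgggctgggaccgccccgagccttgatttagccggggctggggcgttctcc

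The second Mest promoter holds the hexamer 2 times and the Plagl1 promoter 1 time. Over all 32851 RefSeq promoters of the table, 11.6% held the hexamer on either strand. Of the 8 promoters available for these genes, which belong to 5 of them, 5 held it. Mest promoters 2 and 3 overlap almost fully and hold the same hexamers, so counts by gene are the plainer ones. By gene, 4 of the 5 held it: Mest, Plagl1, Grb10 (in its first promoter) and Nnat. Peg3 was the gene without it in this window. The 11.6% is a share of promoters, and a gene with several promoters has more chances to hold the hexamer. The share over all genes was not computed. In the first Grb10 promoter and in the Nnat promoter the hexamer lies at least in part in the 50 bases after the start, which are not printed. These promoters are also rich in CG, with a median of 17 CG per promoter against 7 over all promoters; the share among promoters of like CG content was not tested. A match says only that the letters are present.

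All 7 intervals held more 5hmC reads than the median window of their own chromosome, by factors from 1.27 at Grb10 to 4.11 at Nnat. The reference was every non-overlapping window of the interval's own length on the same chromosome, with windows without a listed site counted as 0. In between lay Impact at 2.32, Peg3 at 3.10, Plagl1 at 3.16, Mest at 3.23 and Peg10 at 3.59 times the median. None of the 7 exceeded the 95th percentile of its windows, so each lies within the ordinary spread along its chromosome. Nnat, at 165 reads per kb, ranked highest, above 88.1% of the windows of chromosome 2. Grb10, at 163 reads per kb, ranked lowest, above 58.9% of the windows of chromosome 11. These densities are almost equal, and the difference in rank comes with the chromosome. The median 1 kb bin with a listed site held 92 reads on chromosome 11 against 36 to 44 reads on the other chromosomes used here. Against windows of all autosomes in place of its own, Grb10 stood at 3.88 times the median and Nnat at 4.57 times.

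The number of listed cytosines gave the same picture at a smaller size. Nnat had 13.4 listed sites per kb, or 3.36 times the median window, above 92.5% of windows. Peg10 followed at 9.43 sites per kb, 2.98 times the median, and above 85.1% of windows. Plagl1 and Grb10 had similar densities, with 9.22 and 9.31 sites per kb, yet these were 2.39 and 1.06 times the median of their chromosomes. Mest had 7.40 sites per kb, Peg3 7.22 and Impact 6.91, which were 2.31, 2.17 and 1.92 times the median. Whether the windows of a chromosome match these loci in gene content or CG content was not tested, as mm9 sequence and gene annotation were not used here.

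**Figure D1:**
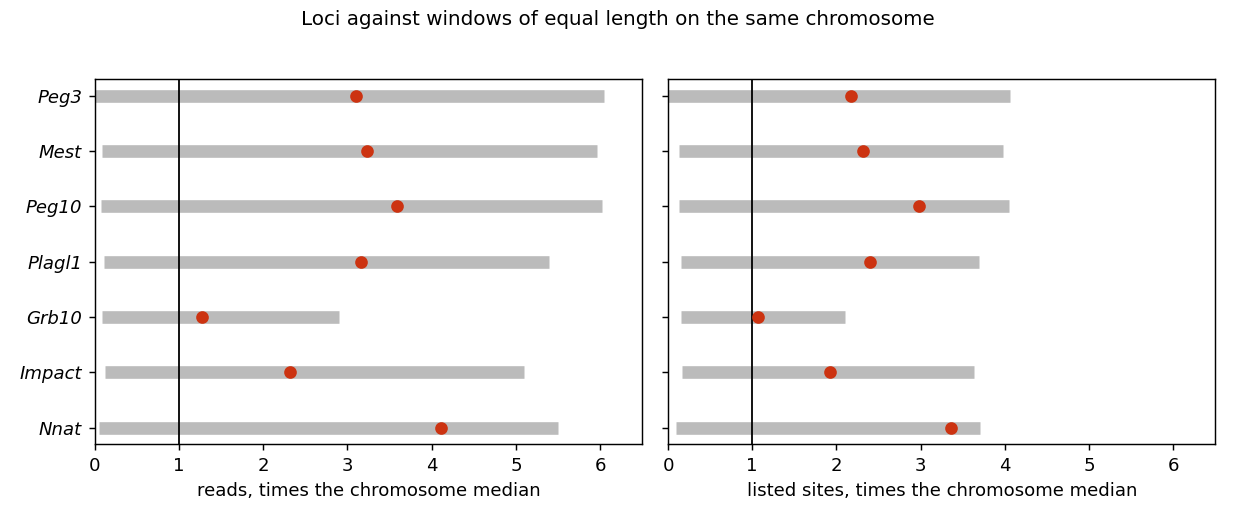
Reads (left) and listed cytosines (right) in each interval, divided by the median window of equal length on the same chromosome (vertical line at 1). Red points are the 7 intervals and grey bars run from the 5th to the 95th percentile of the chromosome's windows; every point lies to the right of 1 and within its bar.

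Reads were unevenly spread within every interval. A 1 kb bin was called rich when its reads reached 4 times the median of its chromosome's bins with a listed site, and empty when no site was listed. Over the 360 bins, 68 were rich (18.9%) and 28 were empty (7.78%). Whole chromosomes had 10.7% to 13.6% rich and 12.8% to 35.1% empty bins. Both shares are of all bins, and an empty bin cannot be rich, so a smaller empty share leaves more bins that can be rich. Rich shares among bins with a listed site are not given for each locus, and on that basis Peg3 lies below its chromosome (counts below). An unlisted cytosine is not a measured 0, because the lowest listed count is 2 and the sources used here do not state the authors' rule for listing. The plot of reads by bin shows 3 kinds of profile by eye. Peg3 has a narrow block, and Mest, Peg10, Plagl1, Impact and Nnat have scattered peaks. Grb10 has a broad read-rich part on 1 side, in which strong and weak bins alternate.

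**Figure D2:**
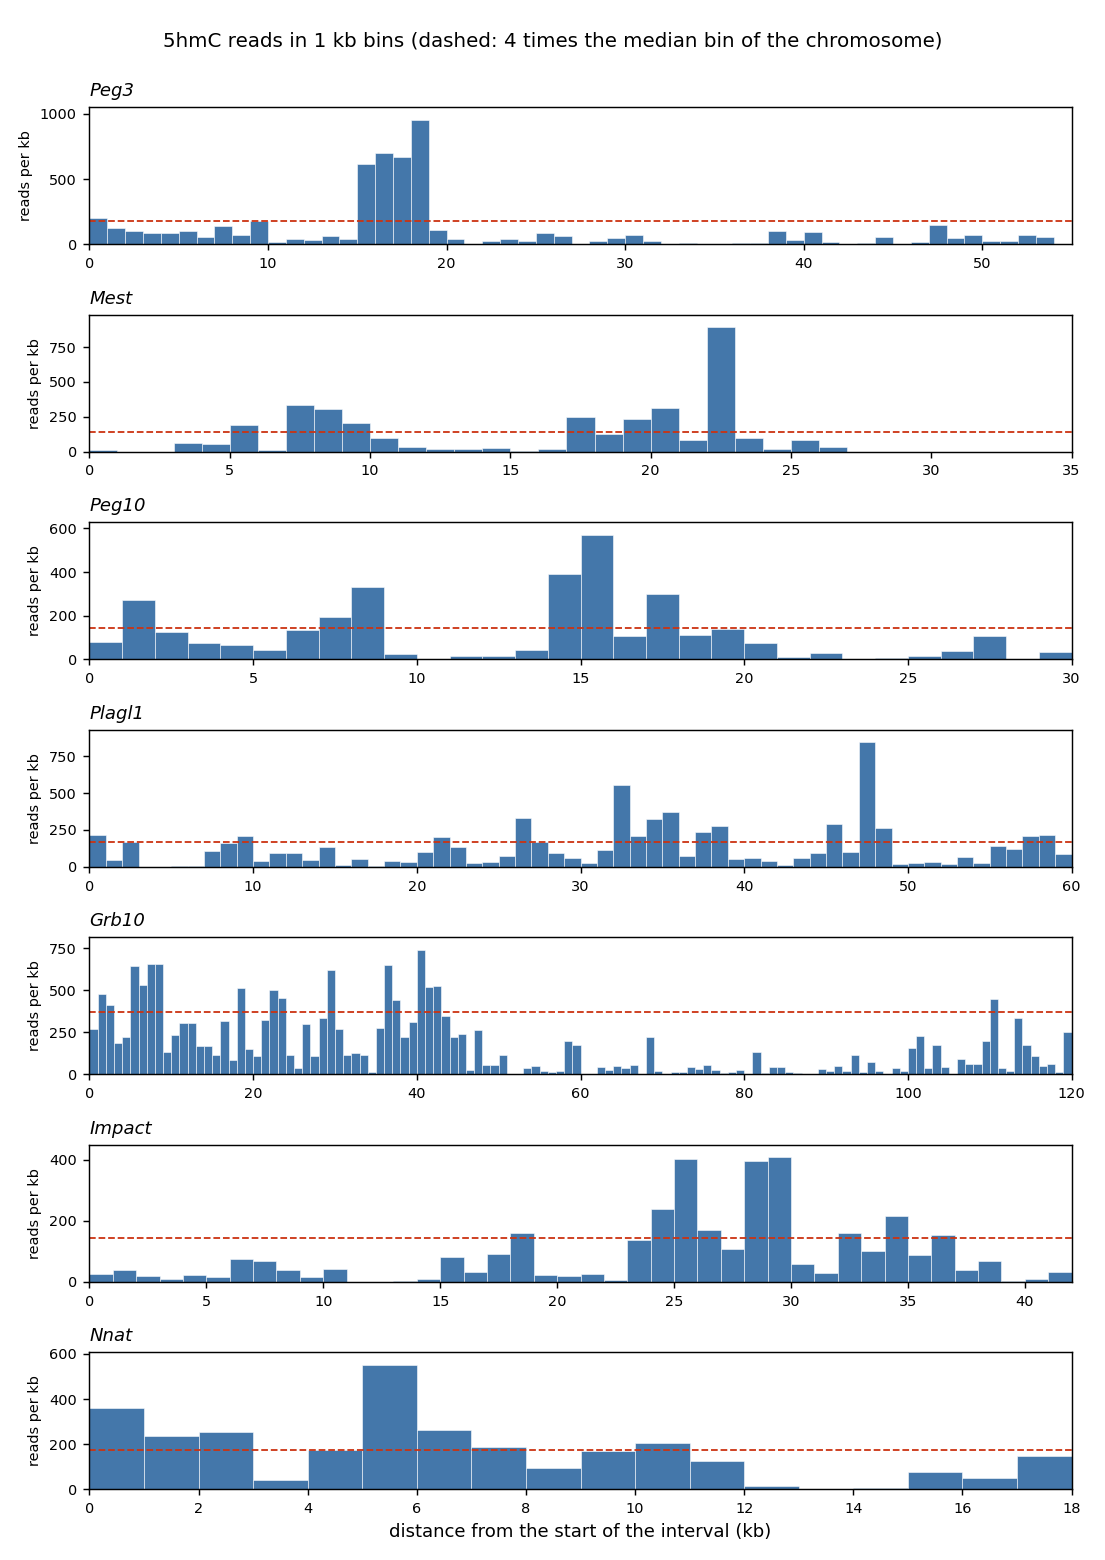
5hmC reads per 1 kb bin along each interval, against distance from the interval's start in kb, with the scale of the y axis set for each gene. The dashed line is 4 times the median bin of the chromosome; at Peg3 a block of 4 bins rises to 957 reads, at Mest the tallest bin holds 893 reads, and at Grb10 most bins over the line lie in the first 45 kb.

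At Peg3, the zinc finger gene first found as a paternally expressed gene of the mouse, 51.9% of the reads fell in 7.27% of the interval. This block ran from 6660001 to 6664000 and held 2944 of 5673 reads (95% interval of the total 5526 to 5823) at 110 of 397 listed sites. Its strongest bin, starting at 6663001, held 957 reads at 35 sites, which was 21.8 times the median bin of chromosome 7. The adjacent bins starting at 6661001 and 6662001 held 702 and 671 reads. Over the whole interval rich bins were 10.9% of all bins (6 of 55), near the 10.7% of chromosome 7. That chromosome had 16039 rich and 52476 empty bins among 149522, against 6 rich and 3 empty among 55 at Peg3. Among bins with a listed site, the rich share was therefore smaller at Peg3 than on its chromosome. Outside the block 2 of 51 bins were rich (3.92%), and the density was 53.5 reads per kb, 1.61 times the median window of the chromosome at 33.3 reads per kb. The locus thus stayed above its chromosome's median without the block, with less of the excess. Empty bins were few, at 3 of 55 (5.45%) against 35.1% over the chromosome, and they stood alone at 6672001, 6677001 and 6679001. The density fell from 325 reads per kb in the 10 kb from 6655001 to 34.9 in the next 10 kb.

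A few cytosines carried much of the Peg3 block. The table's top 0.1% of sites hold more than 168 reads each, and 6 of the 10 such sites found in all 7 intervals were at Peg3. They formed 3 pairs on opposite strands, 6661404 with 6661426 (275 and 270 reads), 6662201 with 6662223 (282 and 282) and 6663957 with 6663979 (208 and 208). These 6 sites held 1525 of the block's 2944 reads. With counts this equal at paired positions, 1 set of reads may have been entered at both cytosines. The CG dyads with the most reads were those at 6661404, with 275 reads on the plus and 9 on the minus strand, and at 6662201, with 282 and 0. Without the top 0.1% of sites the density of Peg3 fell from 3.10 to 2.27 times the median window. With a weight of 0.5 for the sites that the table codes 2CG or 2CH (described below) it was 2.72. The median site within the block had 9 reads and the median site outside it 7. The block also held 110 of the 397 listed sites in 7.27% of the length, so that listed sites lay densely there.

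Plagl1 encodes a zinc finger transcription factor that restrains cell proliferation. Its 7652 reads (7482 to 7825) were spread more widely than at Peg3, and 11 bins were needed to reach 50% of them against 4 at Peg3. Rich bins made up 26.7% of the interval (16 of 60) where chromosome 10 had 13.6%, and empty bins 3.33% (2 of 60) where the chromosome had 25.3%. The strongest bin started at 12847001 and held 845 reads at 43 sites, the most sites of any named bin here, or 20.1 times the median bin. The bins starting at 12832001 and 12835001 held 552 and 369 reads and belong to a run of 4 rich bins with 1449 reads. The sites of Plagl1 were read more deeply than the chromosome, with a median of 11 reads per site against 9. Its CG dyads with the most reads carried reads on both strands, 37 and 82 at 12847068 and 77 and 33 at 12832366. The count of 82 was also listed on the opposite strand at 12847047, an equal-count pair like those at Peg3. The only run of empty bins covered 12803001 to 12805000.

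Grb10, the adaptor that dampens insulin and growth factor signalling, had an uneven profile. The 19540 reads (19267 to 19816) fell to 79.9% in the part of the interval below its midpoint. The 5 blocks of 10 kb from 11825001 to 11875000 held between 236 and 419 reads per kb, and the 5 blocks from 11875001 to 11925000 between 23.6 and 62.7. The last 2 blocks rose again to 106 and 150 reads per kb. The change between neighbouring blocks at 11875000 was from 299 to 62.7 reads per kb. Of the 16 rich bins, 15 lay below 11875000 and the other started at 11935001. The share of rich bins was 13.3% of 120, near the 12.5% of chromosome 11, and 7 bins were empty (5.83% against 12.8%). The bin with the most reads started at 11865001 and held 741 reads, 8.05 times the median bin, and those starting at 11832001 and 11833001 held 657 and 655. Single sites weighed little at this locus. The dyad with the most reads, at 11893899, had 199 reads on the plus and 0 on the minus strand, 1.02% of the locus, and the next, at 11854388, had 150 and 17. The count of 150 was also listed on the opposite strand at 11854410. The longest empty runs were 2 bins each, from 11876001 and from 11885001.

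Mest, whose product has a hydrolase fold and which is expressed from the paternal allele, had 3578 reads (3462 to 3697) and the strongest single bin relative to its chromosome. The bin starting at 30697001 held 893 reads at only 12 sites, 24.8 times the median bin of chromosome 6. A pair of cytosines 22 bp apart, 30697057 on the plus strand with 326 reads and 30697079 on the minus strand with 324, held 650 of these reads. As at Peg3, 1 set of reads may have been entered at both cytosines. The rank of this bin with the pair counted 1 time was not computed. The bins starting at 30682001 and 30695001 held 338 reads at 23 sites and 313 at 19. Rich bins were 8 of 35 (22.9%) where chromosome 6 had 12.5%. Empty bins were 10 of 35 (28.6%), close to the chromosome's 29.2%, and 8 of them formed 1 unlisted stretch from 30702001 to 30710000. Mest was thus the locus with the longest empty run. Without the top 0.1% of sites its density was 2.68 times the median window.

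Peg10, the gene derived from a retrotransposon, had 3360 reads (3247 to 3476) on the same chromosome. Its bins starting at 4705001 and 4704001 adjoin and held 572 reads at 39 sites and 392 at 34. Together they carried 28.7% of the reads in 6.67% of the length. The bin starting at 4698001 held 330 reads at 16 sites. Rich bins were 6 of 30 (20% against 12.5%), and the 3 empty bins (10% against 29.2%), starting at 4700001, 4713001 and 4718001, stood alone. The dyads with the most reads neighbour each other, at 4705096 with 87 reads on the plus and 21 on the minus strand, and at 4705117 with 9 and 87. They are a further case of equal counts on opposite strands 22 bp apart. The last 10 kb was poor, at 31.9 reads per kb against 134 and 170 in the blocks before it.

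Impact, the regulator of translation control, had 3636 reads (3519 to 3756), 21.7% of them below the midpoint of the interval. The density was 33.1 and 43.9 reads per kb in the first 20 kb and 191 in the 10 kb from 13140001. The 3 bins with the most reads were of similar height, with 408 reads at 13149001, 403 at 13145001 and 397 at 13148001, 11.03 to 11.33 times the median bin, and their counting intervals overlap. In the bin at 13145001 a single minus-strand cytosine at 13145426 gave 171 of the 403 reads, with 4 reads on the other strand of its dyad. The dyad at 13154144 was next, with 58 and 24 reads. Rich bins were 9 of 42 (21.4% against 13.0% on the chromosome) and empty bins 2 of 42 (4.76% against 25.6%), which adjoin from 13131001 to 13133000.

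Nnat, the neuronal proteolipid gene, was the shortest interval and had 2964 reads (2858 to 3073). Rich bins were 7 of 18 (38.9%) where chromosome 2 had 12.3%, and they lay in 3 runs. The bins starting at 157383001 and 157384001 held 552 and 264 reads, and the bin at the very start of the interval, 157378001, held 361. The end of the interval was poorer, with 78.8 reads per kb in the last 8 kb against 233 before it, and a single empty bin (5.56% against 25.5%) at 157391001. The dyads with the most reads, at 157383059 and 157383080, hold the same count of 128 on opposite strands, with 4 and 0 on the other strand of each dyad. Because the rich run reaches the edge of the interval, its full width is not shown by these data.

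The next comparison was between strands. CG is palindromic, and both cytosines of a dyad can carry 5hmC. Over the 7 intervals, 879 of 2110 listed dyads (41.7%, 39.5 to 43.8) had both cytosines listed. Grb10 had the largest share, 369 of 685 (53.9%, 50.1 to 57.7), above the 48.1% of chromosome 11. Impact, with 73 of 168 (43.5%, 35.8 to 51.3), also lay above its chromosome at 34.2%. Peg3 had the smallest share, 84 of 301 (27.9%, 22.9 to 33.3), below the 36.3% of chromosome 7. The intervals of the other 4 loci contained the value of their chromosome, from 32.5% at Peg10 to 40.4% at Plagl1. Grb10, with the largest share, also had the most reads per site, a median of 12, and Impact had a median of 9 and Peg3 of 8. The part of depth in these differences was not tested. Where both strands were listed, they differed by more than 3-fold at 19.4% of the dyads of Plagl1 and at up to 29.2% of those of Mest, and the counting intervals of both contained their chromosomes' 22.1% and 21.7%. In the run of rich bins with the most reads at each locus, the share ran from 31.5% (17 of 54) at Peg10 to 70.1% (47 of 67) at Grb10. It was 32.5% at Peg3, 33.3% at Mest, 40.4% at Nnat, 51.9% at Impact and 61.4% at Plagl1. These runs were picked by their reads, and the share over the rich bins of each chromosome was not computed.

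**Figure D3:**
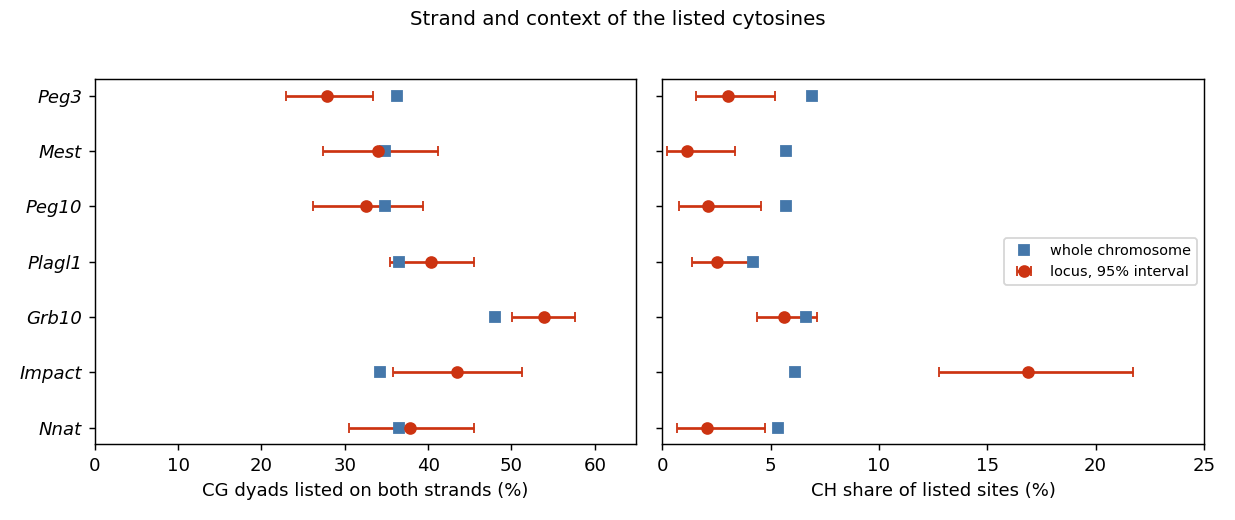
Share of listed CG dyads with both cytosines listed (left) and share of listed sites that are CH (right), in percent, for each interval (red, with exact 95% intervals for counting error) and its whole chromosome (blue squares). Grb10 and Impact lie above and Peg3 below their chromosomes on the left; on the right Impact stands at 16.9% and the other 6 between 1.16% and 5.64%.

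Most CG cytosines of the class named 2CG in the table had a partner of the class on the opposite strand 21 to 25 bp away. At Peg3 all 27 plus-strand sites of this class had such a partner, 23 of them with the same count. At the other genes the number with a partner ran from 10 of 13 at Mest to 14 of 15 at Nnat. Near-equal pairs also occurred with a site of another class, as at 6661404 in Peg3 and 30697057 in Mest. The class made up 14.4% of the sites of Peg3 (11.1 to 18.2) and 40.2% of its reads, against 7.83% and 14.3% on chromosome 7. Peg10 at 15.9% of sites (11.8 to 20.7) and Nnat at 12.8% (8.87 to 17.7) also lay above their chromosomes, which stood at 7.64% and 7.65%. The intervals for this class treat every site as independent. As most of its sites come with a partner, they are too narrow, and intervals by pair were not computed. At Plagl1, Grb10 and Impact the class took 10.9%, 11.4% and 13.1% of the reads, below 15.7%, 13.0% and 15.0% on their chromosomes. Peg3, Peg10, Mest and Nnat, where the class held 40.2%, 27.2%, 21% and 19.8% of reads, were above their chromosomes in this share. At Mest this rested on the site at 30697079: without its 324 reads the share was 13.1%, below the 14.5% of chromosome 6. The reads of a pair may be counted at both cytosines, so that read totals of these loci may count some reads again.

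Cytosines outside CG, written CH, were a larger share of the listed sites at Impact than at the other 6 genes. Impact had 49 CH sites among 290 (16.9%, 12.8 to 21.7), against 6.12% over its chromosome. Of these, 25 were CA, 17 CT and 7 CC. They held 536 reads, 14.7% of the locus, where CH held 3.80% of the reads of the chromosome. One site at 13148104 gave 147 of these reads, and the median CH site had 6. The CH share of Impact lay above 94.1% of the 1717 windows of its length with at least 50 sites, and below their 95th percentile of 17.9%, so that such shares also occur elsewhere on the chromosome. Along the locus, CH sites made up 11 of 40 and 13 of 46 sites in the first 2 blocks of 10 kb, then 18 of 125 and 3 of 73, and 4 of 6 in the last 2 kb. The CH share was thus larger in the blocks poor in reads, at both ends of the interval, than in the 20 kb between them. Sites of class 1CH took 9.66% of the locus against 2.36% of the chromosome, and sites of class 2CH 7.24% against 3.77%. What these codes mean is not stated in the sources used here.

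The CH share was below the chromosome at Peg3 (12 of 397, 3.02%, against 6.91%), Mest (3 of 259, 1.16%, against 5.69%), Peg10 (6 of 283, 2.12%, against 5.69%) and Nnat (5 of 242, 2.07%, against 5.35%), with the chromosome's value outside the counting interval of each. Plagl1 at 2.53% and Grb10 at 5.64% had intervals, 1.39 to 4.21 and 4.36 to 7.16, that reached the 4.21% and 6.62% of their chromosomes. The intervals for CH shares treat every site as independent. Class 2CH held 9 of the 12 CH sites at Peg3, 3 of 3 at Mest, 4 of 6 at Peg10 and 4 of 5 at Nnat. Whether sites of this class come in pairs, as most of class 2CG do, was not tested. Windows of equal length with at least 50 sites gave a milder picture. The share was lower than at Peg3 in 24.9% of windows, Mest in 6.21%, Peg10 in 20.5% and Nnat in 26.7%. The median window had 4.05% for Peg10 and 3.70% for Nnat, inside their counting intervals (0.782 to 4.56 and 0.674 to 4.76). For Peg3 and Mest it had 5.74% and 4.26%, above their intervals (1.57 to 5.22 and 0.240 to 3.35). No CH site was listed in the strong Peg3 block.

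The promoters that could be placed link reads to gene starts. The second Grb10 promoter lies with its start at 11927974 on the minus strand. The gene is transcribed from there toward the read-rich part at lower coordinates. Of the 9 CG of this promoter, 8 were listed (88.9%), 7 of them on both strands, with 191 reads. All 15 listed sites in the sequence met their dinucleotide, which the rule for acceptance requires. The next best of 239402 offsets had 3 listed CG. Counted from the start, the CG at position -55 had 10 reads on the gene's strand and 30 on the other, and the CG at -37 had 14 and 21. The 1 kb before the start held 174 reads and the 1 kb after it 100, and the start lies in the block of 106 reads per kb at the edge of the poor part of Grb10.

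At Nnat the start lay at 157385814, and 7 of 17 CG (41.2%) were listed with 58 reads, 2 of them on both strands. The reads per listed CG, 8.29, were fewer than the 23.9 of the Grb10 promoter. The peak of the locus lay upstream, with 523 reads between 3 and 2 kb before the start, 179 in the last 1 kb before it and 94 in the first 1 kb after it. The first Mest promoter showed the other arrangement. Its start at 30683506 lay inside a run of rich bins, with 412 reads in the 1 kb before and 288 in the 1 kb after the start, falling to 23 reads between 4 and 5 kb after it. Of its 8 CG, 5 were listed (62.5%) with 65 reads. Both placements rest on few listed CG, with 2 and 3 at the next best offset.

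**Figure D4:**
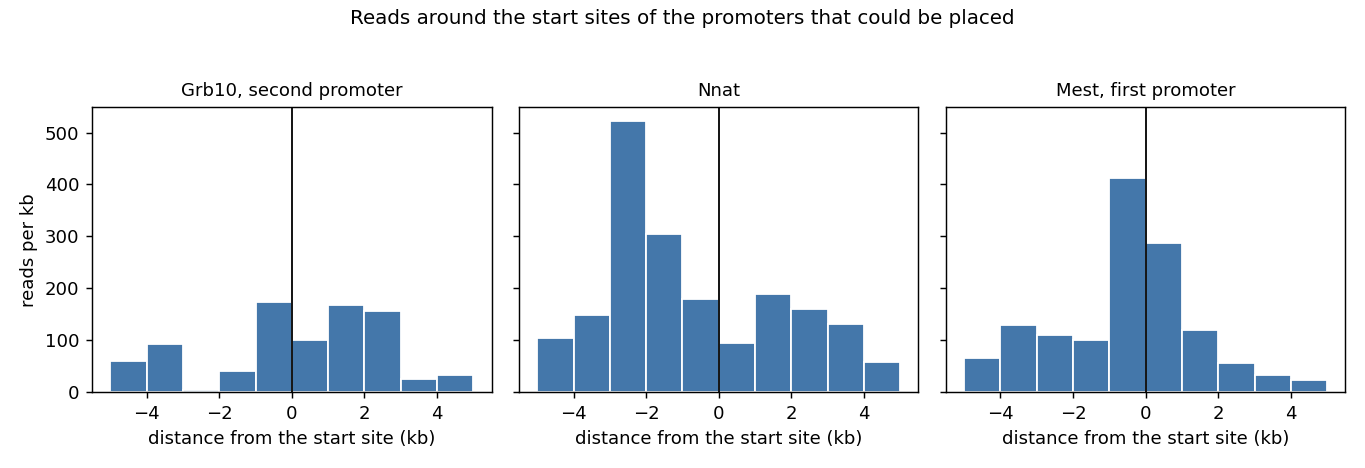
Reads per 1 kb around the start sites of the 3 promoters of these genes that could be placed, against distance from the start in kb in the direction of transcription, on a common y axis. Reads peak 2 to 3 kb before the Nnat start (523 reads) and in the 1 kb before the Mest start (412 reads), and reach at most 174 around the Grb10 start.

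The promoters that could not be placed allow a bound, computed after the placements were seen. If an interval holds the RefSeq sequence unchanged, then no more CG of it can be listed than at the best offset without a mismatch. This bound was 3 of 45 CG for the first Grb10 promoter, 4 of 25 for Plagl1, 3 of 17 for Mest promoters 2 and 3, which overlap, and 3 of 13 for Peg3. The promoters with 45 and 25 CG, the most of these genes, thus had at most 3 and 4 listed. Offsets other than the placed ones also matched up to 2 or 3 listed CG at the placed promoters of these genes, so a bound of 3 or 4 need not reflect any listed CG. Under the same condition, the 2 Grb10 promoters differ, with 8 of 9 CG listed in the promoter with fewer CG and at most 3 of 45 in the one with more. For Peg10 and Impact no promoter sequence was used here.

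**Figure D5:**
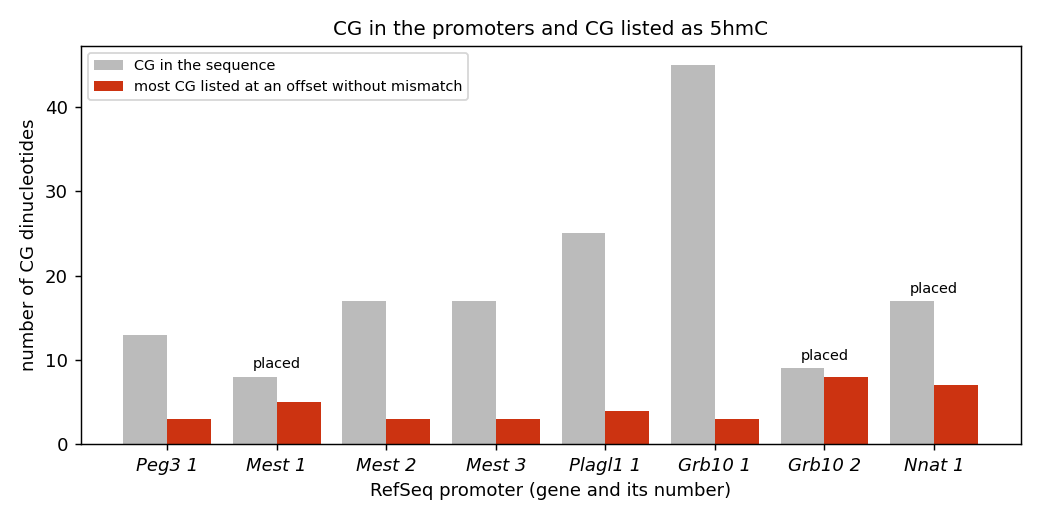
Number of CG dinucleotides in each RefSeq promoter of these genes (grey) and the largest number of them listed as 5hmC at an offset without mismatch (red); for the 3 promoters marked as placed the red bar is the count at the placed position, and for the others it is an upper bound. Red bars reach 8, 7 and 5 at the placed promoters and 3 or 4 at the others, a split that the minimum of 5 listed CG for placement sets.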

How the data were processed

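Per the labels' protocols, 100 ng of E14 DNA was glucosylated and cut with AbaSI, the cut ends received a biotinylated adapter, and after shearing and capture the fragments went through 16 PCR cycles and HiSeq sequencing. The submitters' processing notes name CASAVA 1.8.2, Bowtie and build mm9; the sources used here do not give the aligner's version, read filters or the rule that lists a cytosine. The values are whole-number read counts per cytosine, as deposited by the authors in 1 column that pools both libraries; the sources used here do not give how they were pooled or whether they came from separate cultures. The depth is 176006227 reads over all listed sites, and 0 columns of per-sample values were left unused.

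Positions were made 1-based. Reads, sites, CG dyads (the plus-strand and minus-strand cytosines of 1 CG) and 1 kb bins were counted per interval. Reference windows and bins covered the same chromosome from its first to its last listed site. For each gene the text names the 3 bins with the most reads, the longest run of empty bins and the 2 dyads with the most reads; sites in the top 0.1% and other runs were named after their values were seen. Intervals are exact Poisson for reads and Clopper-Pearson for shares, at a level of 95%. Promoters came from RefSeq (GRCm38.p6) and were placed in mm9 by their dinucleotides alone, without converting coordinates; 17 of 25 listed gene symbols had a promoter sequence. Alternatives covered minimum counts, bin sizes, thresholds, references and the minimum for placement. The genes and lists were chosen with earlier results of these data known. Functions were tested on simulated data. The tools were numpy 2.4.6, pandas 2.3.3, scipy 1.17.1 and matplotlib 3.10.9 under Python 3.11.15.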

Additional observations from a re-analysis of the deposited data

How the results depend on the processing

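All 7 intervals stayed above the median window of their chromosome, by reads and by sites, under each of 7 alternatives. These were minimum counts of 5 and 10, leaving out the top 0.1% of sites, and a weight of 0.5 for classes 2CG and 2CH. The others were shifted windows, all autosomes as reference, and CG only. The factors ran from 1.27 to 4.57 for reads and from 1.06 to 4.12 for sites. Shares over all 360 bins depended on their definition. Rich bins (18.9%) were 25.7% with 2 kb bins (12.5% to 16.5% over the chromosomes), 11.9% with at least 10 reads per site (5.57% to 8.95%), 39.4% at 2 times (21.5% to 27.7%) and 5.83% at 8 times the median (2.58% to 4.43%). Empty bins (7.78%) were 18.3% with 500 bp bins (24.1% to 47.1%), 2.24% with 2 kb bins (5.75% to 25.3%), and 11.7% and 23.1% with at least 5 and 10 reads (17.5% to 41.2% and 28.9% to 54.6%). Of 77 such shares of single loci, 3 changed side of their chromosome: Grb10 rich bins at 8 times the median (0.833% against 2.58%), Peg3 rich bins when shifted (9.26% against 10.7%) and Mest empty bins of 2 kb (17.6% against 16.8%). Dyads on both strands (41.7%) were 38.5% and 30.2% with at least 5 and 10 reads on each strand. At the minimum of 10, Grb10 still had the largest share (40.3%), and Peg10 (15.4%) stood below Peg3 (18.3%). Impact was at 23.7%, near Nnat at 23.3%. Shares of the chromosomes at these minimums were not computed. Promoters placed numbered 1 with at least 8 listed CG, 4 with 5 and 0 with 12. Of 196 values of single loci under alternatives, 118 stayed within the counting interval of the main value and 78 moved out of it; no density crossed the chromosome's median. In alternatives chosen after seeing the data, the share of Mest reads in class 2CG turned from above to below its chromosome without its strongest site (13.1%), and densities without each locus's strongest run of rich bins were 1.15 to 3.26 times the median. No paired analysis was possible because the deposited table pools the 2 libraries, and for the same reason none could be left out. Depth limits what is listed, since sites under 2 reads are absent from the table.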

Other observations

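With the minimum of 5 listed CG, 1 promoter of a neighbouring gene was placed as well: that of Zim1, an imprinted zinc finger gene near Peg3, with its start at 6649143 on the minus strand of chromosome 7. It had 5 of 20 CG listed (25%) with 34 reads, and the next best offset had 4 listed CG, so this placement is weak. All 4 promoters placed at this minimum lay on the strand that RefSeq gives for the gene.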
